A study of Mus musculus with 18 samples.

Results

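Transcript levels of the 6 Egr and Nr4a immediate early genes Egr1, Egr2, Egr3, Nr4a1, Nr4a2 and Nr4a3 were followed in splenic B cells of MRL/lpr mice, without and with a TLR agonist. The genes were taken by symbol from the 23420 genes listed for each of 18 RNA sequencing libraries, and all 6 were present in every library. Values are log2 CPM, that is, counts scaled to a common library size on a log2 scale after normalization by the authors. Each member exceeded 3 log2 CPM in every library, so that no member depended on the filter on low values, which asked for more than 0 log2 CPM in at least 3 libraries of a fit.

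All mice carried the Fas lpr mutation of the MRL/lpr strain, which develops a lupus-like disease, and were 5 to 7 weeks old by their labels. In the first arm, all mice were female and Tlr7-/-. Bead-purified B cells titled TLR9het (Tlr9+/- Tlr7-/-, here Tlr9het) were compared with Tlr997 Tlr7-/- cells (here Tlr997), in which TLR9 signals through the TIR domain of TLR7 in place of its own. These cells were left unstimulated or received 10 µg/ml of the TLR9 agonist CpG for 4 h. In the second arm, B cells came from male Tlr779 Tlr9-/- mice (here Tlr779), with a TLR7 that signals through the TLR9 TIR domain. They received no agonist or 5 µg/ml of the TLR7 agonist CL097 for 4 h. Each of the 6 groups held 3 libraries. The chimeric alleles were inserted at the endogenous receptor loci and were thus present in every cell of the animal. The titles give Tlr9het as Tlr9+/-, whereas the treatment protocol writes Tlr9-/- for these mice, and the titles were followed. Sex, genotype, agonist and the age given in the paper changed together between the arms and cannot be told apart. Time points other than 4 h were not analysed here.

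Egr1, Egr2 and Egr3 encode zinc finger transcription factors that bind GC-rich sites. They are switched on within minutes of antigen receptor or growth factor signaling through the ERK pathway and serum response factor, which binds the CArG box. Nr4a1, Nr4a2 and Nr4a3 encode orphan nuclear receptors without a classical ligand, which bind a response element called NBRE, and calcium and cAMP signaling are among their inducers. In lymphocytes, Egr2, Egr3 and the Nr4a receptors are known as restraints on activation, and Nr4a1 is widely used as a reporter of antigen receptor signaling.

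Promoters are shown for the members with a RefSeq promoter window. The Nr4a members share a sequence feature there, and its part in the responses below was not tested. RefSeq windows (GRCm38.p6, 250 bases before and 50 after an annotated start) matched 4 of the 6 members, with 8 windows. The motifs were chosen with the sequences in view. In the sequences, capitals mark the letters TGACG (the half-site of the cAMP response element) or their reverse complement on the printed strand and, in Egr2, also the CArG box. The bases shown lie before the start and on no exon of GENCODE M21, and for Nr4a3 this left only the 98 bases farthest from the start.
Egr2 (GRCm38.p6, chr10:67537619-67537868, + strand): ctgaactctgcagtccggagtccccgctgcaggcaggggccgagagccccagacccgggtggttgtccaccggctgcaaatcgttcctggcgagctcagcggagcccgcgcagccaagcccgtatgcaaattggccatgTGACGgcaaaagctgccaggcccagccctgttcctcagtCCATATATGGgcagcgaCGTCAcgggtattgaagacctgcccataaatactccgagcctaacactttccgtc
Nr4a1 (GRCm38.p6, chr15:101266596-101266845, + strand): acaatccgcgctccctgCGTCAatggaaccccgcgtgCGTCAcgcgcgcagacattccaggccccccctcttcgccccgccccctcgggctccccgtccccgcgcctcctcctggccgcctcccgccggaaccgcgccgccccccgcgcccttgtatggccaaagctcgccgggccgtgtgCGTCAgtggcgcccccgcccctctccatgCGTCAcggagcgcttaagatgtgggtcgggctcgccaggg
Nr4a2 (GRCm38.p6, chr2:57124004-57124253, − strand): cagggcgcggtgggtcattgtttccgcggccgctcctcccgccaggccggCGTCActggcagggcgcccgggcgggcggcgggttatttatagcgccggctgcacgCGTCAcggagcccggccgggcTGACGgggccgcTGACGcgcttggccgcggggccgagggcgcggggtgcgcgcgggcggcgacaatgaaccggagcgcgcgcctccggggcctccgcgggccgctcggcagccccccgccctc
Nr4a3 (GRCm38.p6, chr4:48045055-48045152, + strand): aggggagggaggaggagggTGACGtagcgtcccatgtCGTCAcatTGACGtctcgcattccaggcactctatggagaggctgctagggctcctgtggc

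The letters TGACG, searched on both strands of the 250 bases before the start, occurred 4 times each in the windows of Nr4a1, Nr4a2 and Nr4a3 and 2 times in the Egr2 window shown above. Of all 32851 windows of 27025 gene symbols, 17.8% held at least 1 copy and 0.137%, that is 45 windows, held at least 4. The full cAMP response element TGACGTCA was in 1.55% of all windows and in no member's window. A CArG box was in 4 of the 5 Egr2 windows, 3 of which overlap one another, and in 1.47% of all windows. No member's window held the NBRE letters AAAGGTCA (1.34% of all windows), the EGR site GCGTGGGCG (0.536%), the AP-1 site TGANTCA (6.75%) or the MEF2 site (0.508%). These matches describe letters and not bound sites.

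The deposited values hold no counts, so the depth of each library is unknown. Replicates of a group correlated across 11676 genes with r from 0.944 to 0.989, and genes are not independent replicates. The lowest value was among the unstimulated Tlr997 libraries. The 6 B cell markers summed to between 5523 and 7338 CPM without an agonist and to between 1653 and 3160 CPM with one. Without and with an agonist, the ranges of the summed CPM were 1.8 to 11.9 and 2.1 to 24.5 for 6 T cell markers, 4.4 to 11.9 and 3.0 to 19.0 for 6 NK cell markers, 111 to 422 and 65.2 to 157 for 5 macrophage and monocyte markers, and 56.6 to 78.8 and 123 to 170 for 6 dendritic cell markers. They were 27.9 to 123 and 20.6 to 87.4 for 5 neutrophil markers, 554 to 1214 and 285 to 714 for 5 plasma cell markers, and 13.0 to 474 and 12.2 to 472 for 4 erythroid markers, among which Hba-a1 and Hba-a2 sat at the lowest value of -5.05 log2 CPM throughout. Between libraries of the same genotype and replicate number, the sums for B cells, macrophages and monocytes, plasma cells and neutrophils were lower with the agonist in 9 of 9 cases, and those for dendritic cells and T cells were higher in 9 of 9. The groups without and with agonist did not overlap in 3 of 3 genotypes for B cells, plasma cells and dendritic cells, in 2 for macrophages and monocytes, in 1 for T cells and in 0 for neutrophils. Their part in the responses below was not tested. In RNA from bulk cells, fewer cells of a type and less RNA per cell cannot be told apart.

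Levels of different genes were compared per kilobase of exon, as log2 CPM minus log2 of the exon length (3.40 to 5.99 kb, GENCODE M21, all transcripts joined). On this scale, Nr4a1 was the most abundant member in each of the 6 groups, at 6.88 ± 0.11 in unstimulated Tlr9het (SD, n = 3). It was followed there by Egr1 at 4.75, Egr2 at 4.45, Egr3 at 4.26, Nr4a2 at 3.06 and Nr4a3 at 2.70. The libraries of Egr1 and Egr2 overlapped in this order, as did those of Nr4a2 and Nr4a3. With CpG, Nr4a3 moved from the lowest to the second place in Tlr9het, at 4.08 ± 0.13 (SD, n = 3), and Egr3 and Nr4a2 formed the lowest pair at 1.47 and 1.22. In Tlr997 with CpG, Nr4a3 at 3.34 ± 0.015 (SD, n = 3) stayed below Egr1 at 3.85 and Egr2 at 3.44. In Tlr779 with CL097, Egr1 kept the second place at 5.21, and Nr4a3 at 4.04 and Egr2 at 3.89 overlapped.

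**Figure D1:**
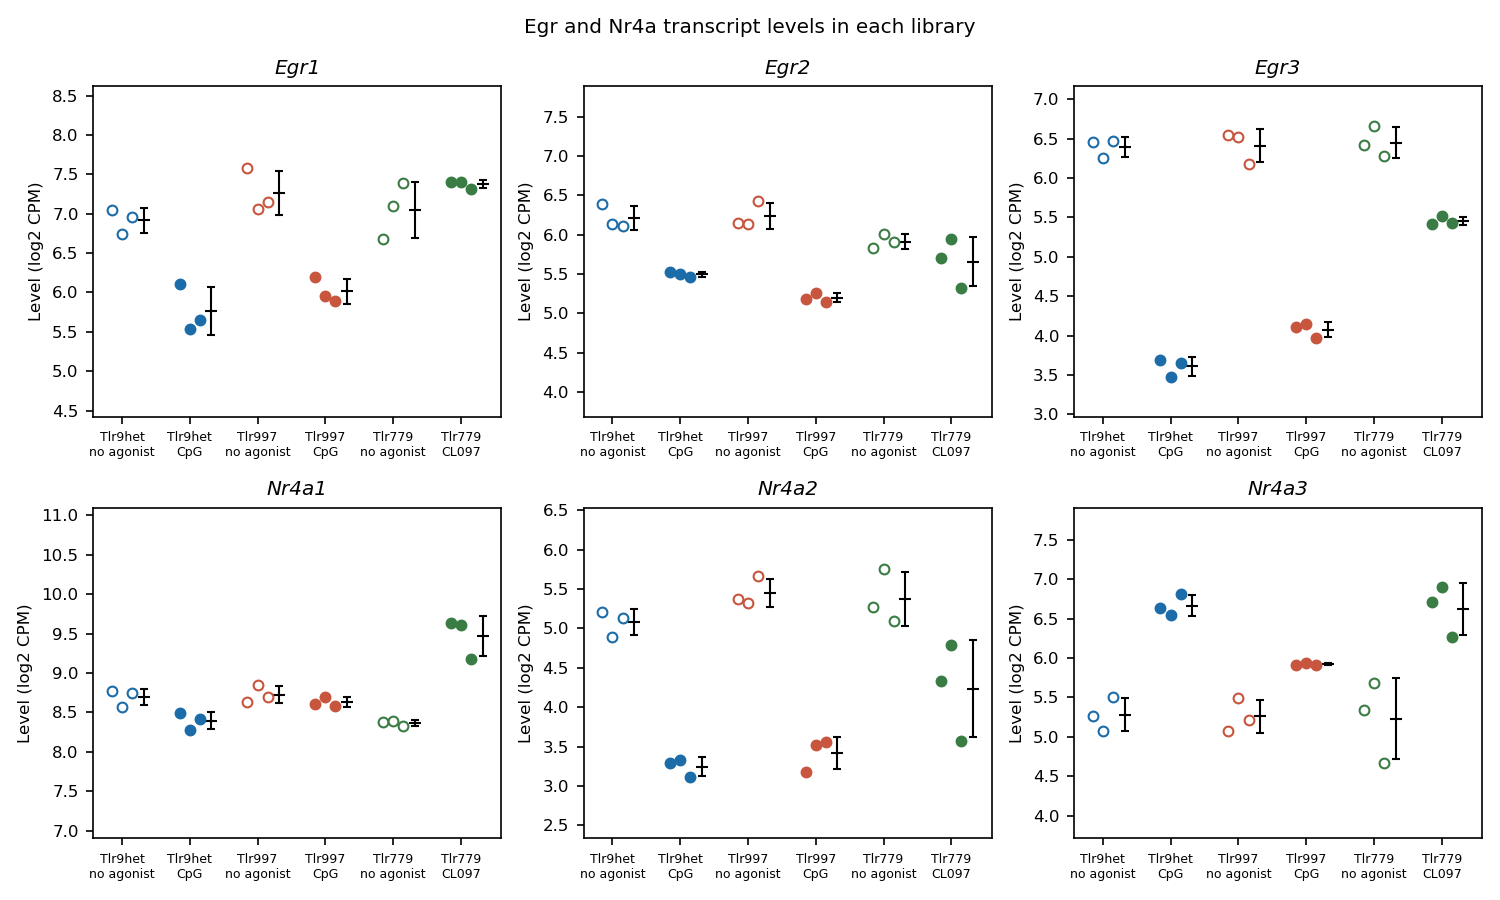
Level of each member (y axis, log2 CPM) in the 18 libraries, grouped by genotype and agonist (x axis). Circles are single libraries, open without and filled with an agonist, black bars give the group mean ± SD (n = 3), and the y axes span equal log2 ranges around different centres. Egr3 and Nr4a2 were lower with either agonist, Nr4a3 was higher, and Nr4a1 was higher only in the CL097 libraries.

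To find how the members responded to CpG, stimulated and unstimulated libraries of each genotype were compared with limma, with the 12 libraries of the first arm in 1 model, and genes were called when the p adjusted by Benjamini-Hochberg over 11494 genes was under 0.05 and the log2 fold change beyond 0.5 in size. Nr4a3 rose in each genotype, and Egr1, Egr2, Egr3 and Nr4a2 fell, whereas Nr4a1 was not called. Thus 1 of 6 members was higher and 4 were lower in Tlr9het, where 29.7% of all genes tested were called higher and 28.2% lower. The counts were the same in Tlr997, where 29.6% of genes were called higher and 26.0% lower. The median log2 fold change of the 6 members was -0.93 in Tlr9het and -1.14 in Tlr997, against 0.038 and 0.072 for all genes tested. These comparisons and those of the genotypes below share libraries.

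Egr3 (chromosome 14, 70077317 to 70082613, GRCm38) had the largest response of the members. It stood at 6.46, 6.25 and 6.47 log2 CPM in the unstimulated Tlr9het libraries and at 3.70, 3.48 and 3.65 with CpG. In Tlr997 it was at 6.54, 6.51 and 6.17 without and at 4.11, 4.15 and 3.97 with CpG. The groups were more than 2 log2 units apart at their nearest libraries in each genotype. Egr3 fell by 2.79 on the log2 scale in Tlr9het (SE 0.11, limma adjusted p 8.1e-11), a 6.90-fold decrease. It fell by 2.34 in Tlr997 (SE 0.11, limma adjusted p 5.45e-10), a 5.05-fold decrease.

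Egr1 (chromosome 18, 34861207 to 34864956) was at 7.05, 6.74 and 6.96 log2 CPM in unstimulated Tlr9het and at 6.11, 5.53 and 5.65 with CpG. In Tlr997 it was at 7.58, 7.05 and 7.14 without and 6.20, 5.96 and 5.89 with CpG. No stimulated library reached the lowest unstimulated one of its genotype. The log2 fold change was -1.15 in Tlr9het (SE 0.16, limma adjusted p 1.9e-05) and -1.25 in Tlr997 (SE 0.16, limma adjusted p 9.7e-06).

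Egr2 (chromosome 10, 67534469 to 67542188), whose product is best known in lymphocytes as a regulator of tolerance, was at 6.39, 6.14 and 6.11 log2 CPM in unstimulated Tlr9het and at 5.53, 5.50 and 5.46 with CpG. The unstimulated Tlr997 libraries held 6.15, 6.13 and 6.43, and those with CpG 5.19, 5.26 and 5.15. Its stimulated libraries were nearly level within each genotype and lay below all unstimulated ones. The log2 fold change was -0.72 in Tlr9het (SE 0.092, limma adjusted p 9.9e-06), the smallest among the called Egr responses, and -1.04 in Tlr997 (SE 0.092, limma adjusted p 2.7e-07).

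Of the Nr4a receptors, Nr4a2 (chromosome 2, 57106830 to 57124003) fell with CpG. It was at 5.21, 4.89 and 5.13 log2 CPM in unstimulated Tlr9het and at 3.29, 3.33 and 3.11 with CpG. In Tlr997 it was at 5.37, 5.33 and 5.66 without and 3.18, 3.51 and 3.56 with CpG. The groups did not overlap in either genotype. Nr4a2 fell by 1.83 in Tlr9het (SE 0.13, limma adjusted p 3.2e-08) and by 2.03 in Tlr997 (SE 0.13, limma adjusted p 1.3e-08), on the log2 scale.

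Nr4a3 (chromosome 4, 48045078 to 48086447) moved the other way. In Tlr9het it was at 5.27, 5.08 and 5.50 log2 CPM without and at 6.63, 6.55 and 6.81 with CpG. In Tlr997 it was at 5.07, 5.49 and 5.22 without and at 5.91, 5.94 and 5.92 with CpG. Every stimulated library lay above every unstimulated one of its genotype, with a gap of 1.05 log2 units in Tlr9het and 0.42 in Tlr997. The log2 fold change was 1.38 in Tlr9het (SE 0.12, limma adjusted p 1.7e-07), a 2.61-fold increase, and 0.66 in Tlr997 (SE 0.12, limma adjusted p 2.2e-04), a 1.58-fold increase.

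Nr4a1 (chromosome 15, 101253902 to 101274795) was at 8.77, 8.57 and 8.74 log2 CPM in unstimulated Tlr9het and at 8.49, 8.28 and 8.42 with CpG. In Tlr997 it was at 8.63, 8.85 and 8.70 without and 8.61, 8.70 and 8.58 with CpG. The Tlr9het groups were separated by only 0.083 log2 units, and the Tlr997 groups overlapped. The log2 fold change of Nr4a1 in Tlr9het was -0.30 (SE 0.074, limma adjusted p 0.0026), under the fold change threshold. In Tlr997 it was -0.094 (95% interval -0.25 to 0.07, limma adjusted p 0.27).

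**Figure D2:**
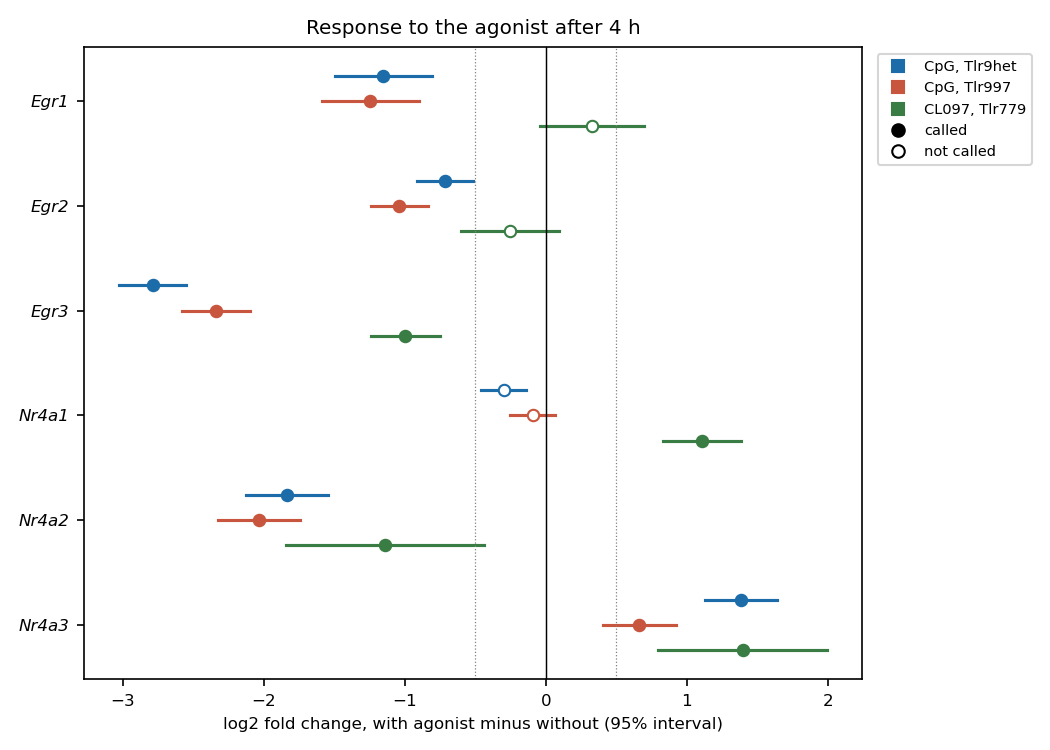
Log2 fold change of each member, with agonist minus without (x axis), in the 3 stimulus responses, with 95% intervals from limma. Filled symbols were called, and dotted lines mark the fold change threshold. CpG lowered Egr1, Egr2, Egr3 and Nr4a2 and raised Nr4a3 in each genotype, and CL097 raised Nr4a1 and Nr4a3 and lowered Egr3 and Nr4a2.

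To ask whether the exchanged TIR domain mattered before stimulation, unstimulated Tlr997 and Tlr9het libraries were compared. No member was called in either direction by limma, where 0.0174% of genes tested (2 genes) were called higher and 0% lower, and 1237 of the 11494 genes had an unadjusted p under 0.05. Among the members, only Nr4a2 did so, with a log2 difference of 0.38 (95% interval 0.08 to 0.67, limma adjusted p 0.38). Its Tlr997 libraries, from 5.33 to 5.66 log2 CPM, lay above its Tlr9het libraries, from 4.89 to 5.21. Egr1 differed by 0.34, with an interval from just below 0 to 0.69, and the other 4 members by between -0.022 and 0.032, with intervals within -0.28 and 0.25. With 3 libraries in a group, differences inside these intervals were not excluded.

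With CpG, Nr4a3 alone among the members was called between the genotypes. It was lower in Tlr997, at 5.92 ± 0.015 log2 CPM against 6.67 ± 0.13 in Tlr9het (SD, n = 3 each). The log2 difference was -0.74 (SE 0.12, limma adjusted p 0.0028), and the nearest libraries were 0.61 apart. Thus 0 of 6 members were higher and 1 was lower in Tlr997, where 1.25% of genes tested were called higher and 1.47% lower. Leaving out any single library of the arm did not end this call, with differences from -0.80 to -0.67. The summed B cell markers differed between the same libraries, at 1653 to 1721 CPM in Tlr9het and 2598 to 3160 CPM in Tlr997 with CpG, and their part in the difference was not tested.

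Egr3 had the opposite order with CpG, at 4.07 ± 0.10 log2 CPM (SD, n = 3) in Tlr997 against 3.61 ± 0.12 (SD, n = 3) in Tlr9het. Its log2 difference of 0.47 (SE 0.11, limma adjusted p 0.026) fell short of the fold change threshold. It was called without replicate 3 of Tlr997 with CpG, at 0.52, and with array quality weights, at 0.50. Nr4a1, with a difference of 0.24 (95% interval 0.08 to 0.40, limma adjusted p 0.089), and Egr2, with -0.30 (95% interval -0.50 to -0.10, limma adjusted p 0.089), had libraries that did not overlap but did not pass. The intervals for Egr1 (-0.09 to 0.59) and Nr4a2 (-0.12 to 0.47) included 0.

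A difference between stimulated groups does not compare the responses, so the CpG response of Tlr997 minus that of Tlr9het was tested as an interaction. The rise of Nr4a3 was smaller in Tlr997, by 0.72 on the log2 scale (SE 0.17, limma adjusted p 0.047). Between libraries of the same replicate number, Nr4a3 rose by 1.36, 1.48 and 1.31 in Tlr9het and by 0.84, 0.45 and 0.70 in Tlr997, although the numbers were not shown to pair the Tlr997 libraries. Thus 0 of 6 members were higher and 1 was lower, where 0.687% of genes tested were called higher and 0.853% lower. The adjusted p lay close to the threshold. Leaving out any one of 9 of the 12 libraries ended the call, that is, all but replicate 3 of unstimulated Tlr9het and replicates 1 and 3 of unstimulated Tlr997, with differences from -0.78 to -0.60 and adjusted p up to 0.13. At the same difference of -0.72, the call was also lost with no filter on low values (adjusted p 0.19), without the variance trend (0.12) and with all 18 libraries in 1 model (0.25).

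The decrease of Egr3 was smaller in Tlr997 by 0.45 (95% interval 0.11 to 0.79, limma adjusted p 0.18), which did not pass. For the other members the difference of responses was -0.32 for Egr2 (95% interval -0.60 to -0.04), 0.21 for Nr4a1 (-0.02 to 0.43), -0.20 for Nr4a2 (-0.61 to 0.21) and -0.093 for Egr1 (-0.58 to 0.39). Egr1, Nr4a1 and Nr4a2 thus had intervals that included 0, and none of these 4 passed the adjusted test.

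**Figure D3:**
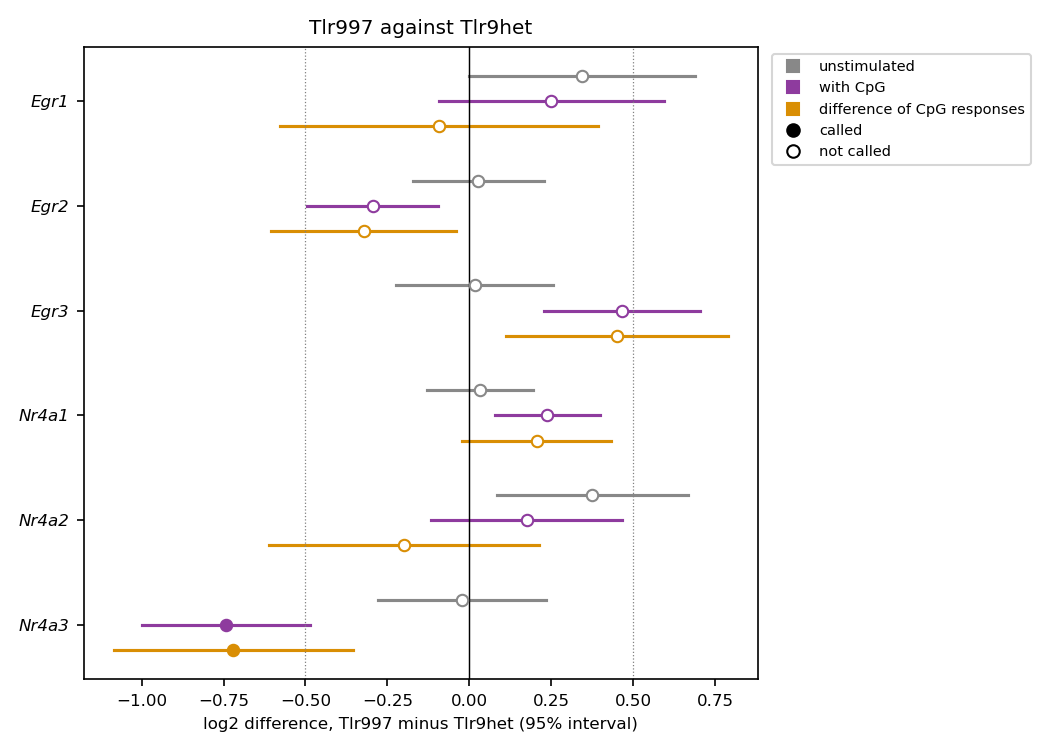
Log2 difference of each member, Tlr997 minus Tlr9het (x axis), without stimulation, with CpG, and as the difference of the CpG responses, with 95% intervals from limma and filled symbols for called differences. Nr4a3 was called with CpG (-0.74) and in the difference of responses (-0.72), and no member was called without stimulation.

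The response to CL097 was measured in Tlr779 cells with the 6 libraries of the second arm and 11082 genes tested. Nr4a1 and Nr4a3 rose, Egr3 and Nr4a2 fell, and Egr1 and Egr2 were not called. Thus 2 of 6 members were higher and 2 lower, where 22.7% of genes tested were called higher and 23.6% lower. The median log2 fold change was 0.036 over the members and -0.019 over all genes.

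Nr4a1 was at 8.38, 8.39 and 8.33 log2 CPM without and at 9.63, 9.61 and 9.18 with CL097, and the groups did not overlap. The log2 fold change was 1.11 (SE 0.12, limma adjusted p 1.1e-04), a 2.15-fold increase of the most abundant member. Nr4a3 was at 5.34, 5.68 and 4.67 without and at 6.71, 6.90 and 6.26 with CL097. Replicate 3 was the lowest in each group, so the rises by replicate number of 1.37, 1.22 and 1.59 varied less than the levels. Its log2 fold change was 1.39 (SE 0.26, limma adjusted p 0.0020).

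Egr3 was at 6.42, 6.66 and 6.28 log2 CPM without and at 5.42, 5.51 and 5.43 with CL097, and no libraries overlapped. It fell by 1.00 on the log2 scale (SE 0.11, limma adjusted p 9.6e-05), a 1.99-fold decrease. Nr4a2 was at 5.27, 5.76 and 5.09 without and at 4.34, 4.79 and 3.57 with CL097, again lowest in replicate 3. The differences by number were -0.93, -0.97 and -1.52, and the log2 fold change was -1.14 (SE 0.30, limma adjusted p 0.012). With no filter on low values this call was lost, at an adjusted p of 0.11.

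Egr1 with CL097 was at 7.41, 7.41 and 7.32 log2 CPM, against 6.675, 7.096 and 7.384 in the unstimulated libraries. The groups overlapped, with 2 of the 3 CL097 libraries just above the highest unstimulated one. Its log2 fold change was 0.33 (95% interval -0.04 to 0.69, limma adjusted p 0.11), with a rise in 2 of the 3 numbers. Egr2 was at 5.83, 6.01 and 5.91 without and at 5.71, 5.95 and 5.32 with CL097, with overlapping groups. Its log2 fold change was -0.25 (95% interval -0.60 to 0.09, limma adjusted p 0.18).

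The CL097 response of Tlr779 was then set against the CpG response of each genotype of the first arm. These tests were added after the members' values had been seen, and used all 18 libraries in 1 model with 11676 genes. Against Tlr9het, 3 of 6 members were higher and 0 lower, where 10.9% of genes tested were called higher and 9.33% lower. Against Tlr997, 4 of 6 were higher and 0 lower, where 7.99% of genes were called higher and 6.83% lower. A higher value here means a larger rise or a smaller fall with CL097. Agonist, dose, receptor, sex, the age given in the paper and library set differed between the responses and cannot be told apart. The paper also places TLR779 in certain B cell subsets and TLR9 in all of them. The part of this in the differences was not tested.

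Egr3 differed by 1.79 from the Tlr9het response (SE 0.16, limma adjusted p 1.2e-06) and by 1.34 from the Tlr997 response (SE 0.16, limma adjusted p 2.0e-05), its fall with CL097 being the shallower one. Egr1 differed by 1.48 (SE 0.25, limma adjusted p 3.1e-04) and 1.57 (SE 0.25, limma adjusted p 2.6e-04), and Nr4a1 by 1.41 (SE 0.14, limma adjusted p 3.0e-06) and 1.20 (SE 0.14, limma adjusted p 1.9e-05). For Egr1 the fitted change was negative with CpG and positive, but not called, with CL097. Egr2 differed by 0.78 from the Tlr997 response (SE 0.18, limma adjusted p 0.0044) and by 0.46 from that of Tlr9het (95% interval 0.09 to 0.83, limma adjusted p 0.055).

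The rise of Nr4a3 with CL097 differed from that of Tlr9het with CpG by 0.012 (95% interval -0.59 to 0.62), a range too wide to call them equal, and from that of Tlr997 by 0.73 (95% interval 0.13 to 1.34, limma adjusted p 0.077). Nr4a2 differed by 0.70 (95% interval 0.00 to 1.39, limma adjusted p 0.12) and 0.90 (95% interval 0.20 to 1.59, limma adjusted p 0.060). With a block for the replicate number inside each genotype, Nr4a2 was called against Tlr9het (0.70, adjusted p 0.012) and against Tlr997 (0.90, adjusted p 0.0040), and Nr4a3 against Tlr997 (0.73, adjusted p 0.0010). Leaving out replicate 3 of Tlr779 with CL097 also led to these 3 calls and to that of Egr2 against Tlr9het, with differences of 1.03, 1.23, 0.91 and 0.63. Leaving out replicate 2 of unstimulated Tlr779 led to calls of Nr4a2 (1.09) and Nr4a3 (0.96) against Tlr997.

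Known regulators and partners of the families were examined next, as a list of 23 genes. It holds the Egr corepressors Nab1 and Nab2, serum response factor and its Elk partners, MEF2 and NFAT factors, calcineurin subunits, CREB factors, the retinoid receptors that pair with Nr4a proteins, and ERK kinases. Of these, 22 were tested, and Egr4, the remaining Egr gene, was below 0 log2 CPM on average in all groups. With CpG, 1 was higher and 13 lower in Tlr9het (median log2 fold change -0.90), and 1 was higher and 12 lower in Tlr997 (median -0.69). With CL097, 0 were higher and 8 lower in Tlr779 (median -0.36). The corresponding medians over all genes were 0.038, 0.072 and -0.019. Over all genes tested, 29.7% were called higher and 28.2% lower in Tlr9het, 29.6% and 26.0% in Tlr997, and 22.7% and 23.6% in Tlr779, and the same shares are the background of the other 2 lists.

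Mef2c, a MEF2 factor of B cells, fell in all 3 responses, with log2 fold changes of -3.43 in Tlr9het, -3.05 in Tlr997 and -1.68 in Tlr779. Nfatc2, a calcium-regulated NFAT factor, fell as well (-2.44, -2.23 and -2.24). The other gene among the 3 largest called decreases was Nfatc3 in Tlr9het (-1.69), Nab2 in Tlr997 (-1.64) and Elk3 in Tlr779 (-1.75). Rcan1, an inhibitor of calcineurin, was the 1 gene that rose with CpG, by 0.88 in Tlr9het and 0.63 in Tlr997. Between the genotypes with CpG, Mapk3, which encodes the kinase ERK1, was higher in Tlr997 by 0.57, and no gene of this list was called without stimulation or in the difference of responses.

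The other immediate early genes, a list of 30, moved in both directions. With CpG, 13 were higher and 11 lower in Tlr9het (median log2 fold change 0.12), and 9 were higher and 11 lower in Tlr997 (median -0.20). With CL097, 10 of 29 tested were higher and 7 lower (median 0.28), with Fosl1 not tested. In Tlr997 the share called higher was near that of all genes tested (29.6%), and with CL097 the share called lower was near that of all genes tested (23.6%). The AP-1 subunit Jun rose most, by 4.68 in Tlr9het, 3.77 in Tlr997 and 3.72 in Tlr779. Gadd45b, a stress sensor, rose by 3.19, 2.67 and 2.90, and Myc, a driver of growth, by 2.77, 2.39 and 2.56. The phosphatase gene Dusp6, a target and brake of ERK, fell (-2.78, -3.06 and -2.08). The antiproliferative gene Btg2 fell (-2.77, -2.62 and -1.55), as did Klf2, a factor of quiescent lymphocytes (-2.26, -2.65 and -1.25). The list held genes of each direction in every response, and the fall of Egr1, Egr2, Egr3 and Nr4a2 with CpG was shared by Dusp6, Btg2 and Klf2 but not by Jun, Gadd45b and Myc.

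Between the genotypes, none of this list was called without stimulation. With CpG, 0 were higher and 2 lower in Tlr997, namely Jun (-0.78) and Zfp36 (-0.60), which encodes a protein that destabilizes mRNA. In the difference of CpG responses, 0 were higher and 2 lower, namely Dusp2 (-0.56) and Zfp36 (-0.55). The list medians were -0.21 with CpG and -0.27 for the difference, against 5e-04 and 0.012 for all genes.

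The last list held 15 genes tied to Egr2, Egr3 or Nr4a action in lymphocytes, of which 14 were tested in each arm (without Rnf128 in the first and Ikzf2 in the second). With CpG, 6 were higher and 6 lower in Tlr9het (median log2 fold change 0.19), and 5 were higher and 6 lower in Tlr997 (median 0.038). With CL097, 6 were higher and 5 lower (median 0.33). The transcription factor gene Batf rose by 5.46, 4.64 and 4.47 in Tlr9het, Tlr997 and Tlr779, and the chemokine genes Ccl3 by 3.92, 3.16 and 4.96 and Ccl4 by 3.44, 2.49 and 4.68. Dgka, a diacylglycerol kinase that dampens antigen receptor signaling and is a known Egr2 target in T cells, fell (-4.09, -4.11 and -2.05). Id3, a known Egr target, fell too (-1.92, -2.41 and -2.66). The other gene among the 3 largest called decreases was Sh2d2a in Tlr9het (-1.36), Dgkz in Tlr997 (-1) and, in Tlr779, the ligase gene Rnf128 (-2.75). Rnf128 was near the lowest values, at a mean of 1.08 log2 CPM without and -1.67 with CL097, and passed the filter on low values through its unstimulated libraries, so that its decrease is given as a value only. It is still 1 of the 5 genes counted as lower with CL097.

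Between the genotypes with CpG, 0 of these genes were higher and 2 lower in Tlr997, namely Ccl4 (-0.53) and Batf (-0.52), and the same 2 were lower in the difference of CpG responses, by -0.94 and -0.82. None was called without stimulation. Set against the CpG response of Tlr9het, the CL097 response was higher for 7 of 22 tested regulators, 10 of 30 immediate early genes and 6 of 15 genes of the last list, and lower for 1, 2 and 2, where 10.9% of all genes were called higher and 9.33% lower. Against that of Tlr997 it was higher for 5, 13 and 6 genes and lower for 2, 1 and 0, where 7.99% of all genes were called higher and 6.83% lower. Mef2c (1.75 and 1.37), Crem (1.64 and 1.62) and Nfatc3 (1.32 and 1.10) had the largest differences of the regulator list, Dgka (2.03 and 2.05) and Ccl4 (1.24 and 2.18) were among those of the last list, and Zfp36 (1.16 and 1.71) and Klf2 (1.02 and 1.40) among those of the immediate early list.

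**Figure D4:**
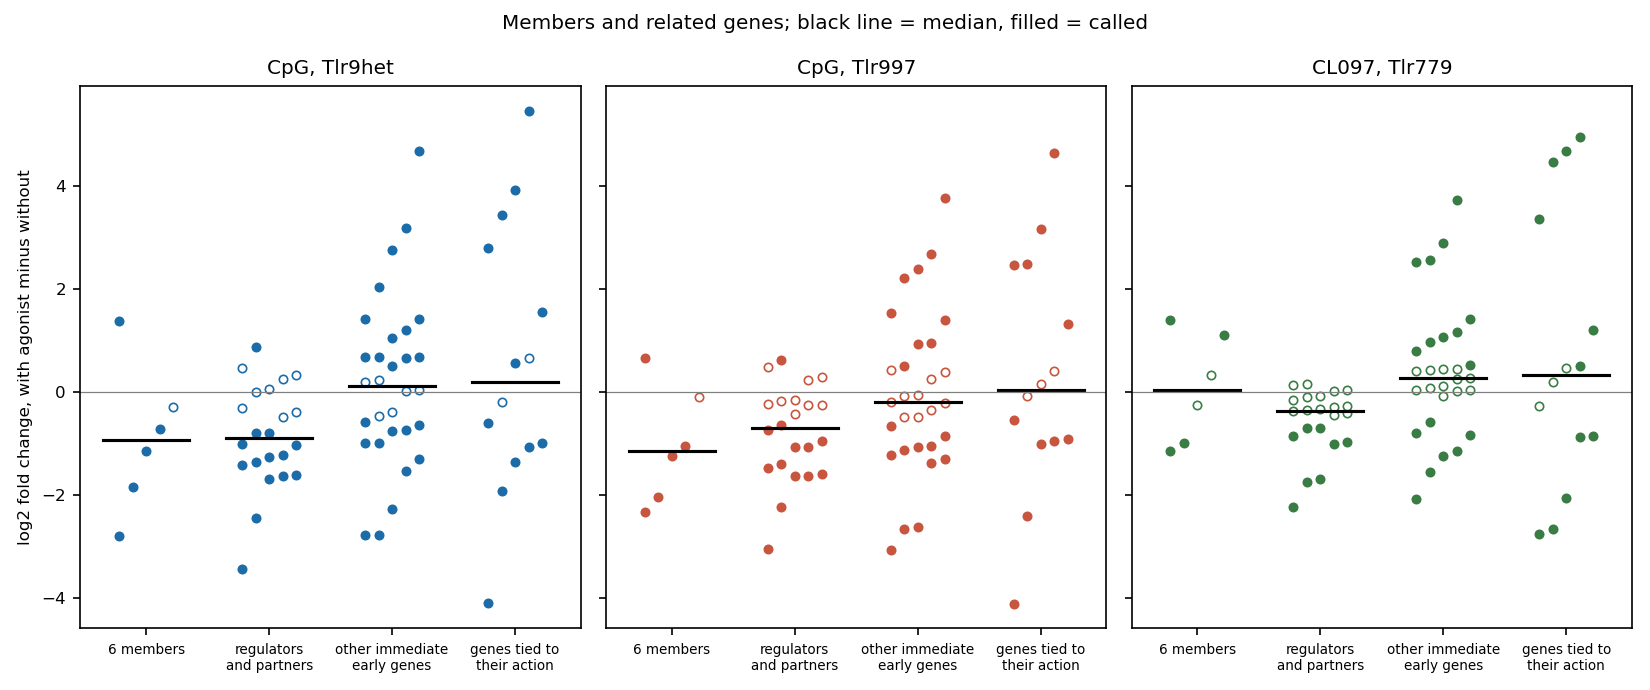
Log2 fold change with agonist minus without (y axis) for the 6 members and the tested genes of the 3 lists (x axis), in the CpG response of Tlr9het and Tlr997 and the CL097 response of Tlr779. Each circle is a gene, filled if called, the black line is the median of the list, and sideways offsets only keep circles apart. The regulator list lay mostly below 0 with CpG (medians -0.90 and -0.69), while the other 2 lists held genes of each direction.

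The values of all 18 libraries carried the trace of a shared processing with an offset per replicate number removed. Across the 12 libraries of the first arm, Egr3 and Nr4a2 followed each other most closely of the 15 member pairs (Pearson's r 0.97), and Nr4a3 ran against Egr3 (-0.90). Over the 6 Tlr779 libraries the same pairs had r of 0.88 and -0.78. Many of the 15 pairs changed sign between the arms, among them Nr4a1 and Nr4a3 (-0.71 to 0.93) and Egr3 and Egr1 (0.95 to -0.64). Egr3 and Nr4a1 (0.74 to -0.93) and Egr1 and Nr4a2 (0.94 to -0.48) did so as well. The stimulated and unstimulated libraries form separate clusters, and these values describe that split.

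Among the genes with the profiles most like each member over those 12 libraries, out of 11493 others, were Trim8 and Reep5 for Egr3 (r 0.997 and 0.996, and 0.95 and 0.98 over the Tlr779 libraries). For Nr4a2 they were Rab5b, Zfp260 and Coro7 (0.991, 0.991 and 0.990, then 0.83, 0.71 and 0.73), and for Nr4a3 they included Snx21 and Smagp (0.983 and 0.976, then 0.90 and 0.97). The genes nearest to Egr2 were Otud7b, Tmx4 and Aplp2 (0.985, 0.984 and 0.981, then 0.78, 0.53 and 0.52). Those nearest to Egr1 were Rnf122, Rnf123 and Arhgap11a (0.979, 0.975 and 0.974), whose r in the Tlr779 libraries was -0.53, 0.15 and -0.57. Nr4a1 had the weakest neighbours, Pea15a, Jarid2 and Tpra1 (0.895, 0.888 and 0.881), all with a negative r in the Tlr779 libraries, at -0.94, -0.71 and -0.79. Such likeness was common, as 2598 genes exceeded an r of 0.9 with Egr3, 617 with Nr4a3 and 0 with Nr4a1.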

How the data were processed

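RNA of bead-purified splenic B cells was sequenced by the authors, aligned to mm10 with STAR 2.6.1a and counted per gene with featureCounts (Subread 2.0.1), per the labels and methods. The deposited values were log2 CPM after the authors' quantile normalization and voom, with 1 file per sample and no counts. For 6306 of 6614 genes below -4 log2 CPM in all 12 libraries of the Tlr7-/- arm, libraries with the same replicate number had 1 value, and for 822 of these it differed between the numbers. Over all 18 libraries, 1 value per number was found for 6008 of 6209 such genes, and for 524 of these it differed between the numbers. An offset per number had thus been removed across both arms, and a fit without a block overstates its residual degrees of freedom.

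Limma 3.58.1 (R 4.3.3) was fitted to the log2 values with a variance trend and 1 mean per group. Genes were tested with more than 0 log2 CPM in at least 3 fitted libraries and called where p, adjusted by Benjamini-Hochberg, was under 0.05 and the log2 fold change was beyond 0.5 in size. The labels do not say that replicates are separate mice, although the protocol names 3 mice per genotype. The p-values measure the spread between libraries that was left after the offset per number had been removed. Members and gene lists were chosen with earlier results of these data known. All 6 members are named in the 6 comparisons, with up to 3 called genes per list and direction and the 3 genes most like each member. Some of the latter are not reported here. In the added comparisons, list genes named outside this rule were chosen after their values were seen. The 2 comparisons of CL097 with CpG were added later.

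Same-numbered libraries correlated in their deviations from group means at 0.51, 0.29 and 0.51 in Tlr9het and at 0.25, 0.49 and 0.33 in Tlr779. In Tlr997 the values were 0.37, 0.083 and 0.025, so the numbers were not shown to pair these libraries. The main fits took no numbers as pairs in any genotype. Their SE and adjusted p come from values with an offset per number already removed, without a loss of residual degrees of freedom for it. Only the differences by number and the alternatives with a replicate block used the numbers. The script was tested on simulated data. Promoters came from RefSeq (GRCm38.p6) and exon lengths from GENCODE M21, on the assembly behind mm10.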

Additional observations from a re-analysis of the deposited data

Results flagged for a closer look

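The difference between the CpG responses of Tlr997 and Tlr9het was called for Nr4a3, at -0.72 on the log2 scale, by a test of the difference itself. Its adjusted p of 0.047 lay close to the threshold, and the call changed in 13 of 21 alternatives, among them 9 of the 12 that left out a single library.

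The difference between the CL097 response of Tlr779 and the CpG response of Tlr9het was called for Egr1 (1.48), Egr3 (1.79) and Nr4a1 (1.41), and that between CL097 in Tlr779 and CpG in Tlr997 for Egr1 (1.57), Egr2 (0.78), Egr3 (1.34) and Nr4a1 (1.20). These 7 results stand out because 2 responses differed in a direct test, and their comparisons were added after the members' values had been seen. Agonist, sex, genotype and the age given in the paper differed between the arms and cannot be told apart. Dixon's test for an outlying library was not run, as it was set for groups of at least 4.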

How the results depend on the processing

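The number of members called stayed at 5 of 6 in each CpG response and at 0 in unstimulated cells under every alternative run, except that a fold change threshold of 1 left 4 of 6 in each CpG response. For CL097 it stayed at 4 except for 3 at that threshold and 3 with no filter. In the other comparisons some counts moved. With CpG, the members called between the genotypes went from 1 to 0 at a fold change threshold of 1 and to 2 with array quality weights, and ranged from 1 to 2 when single libraries were left out. In the difference of CpG responses, the 1 call (Nr4a3) went to 0 with no filter, at a threshold of 1, without the variance trend and with all 18 libraries in 1 model, and ranged from 0 to 1 when single libraries were left out. For CL097 against CpG in Tlr9het, 3 became 5 with array quality weights, 4 with the block within genotype, and 3 to 5 when single libraries were left out. Against Tlr997, 4 became 3 at a fold change threshold of 1, 6 with array quality weights and with the block within genotype, and 4 to 6 when single libraries were left out, with 6 without replicate 3 of Tlr779 with CL097 or replicate 2 of unstimulated Tlr779.

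Values near 0 changed sign. Array quality weights turned the unstimulated difference to -0.051 for Egr2 and 0.15 for Nr4a3. Leaving out single libraries gave -0.07 to 0.11 for Egr2, -0.057 to 0.13 for Egr3, -0.0285 to 0.078 for Nr4a1 and -0.14 to 0.088 for Nr4a3 in that comparison, -0.21 to 0.0785 for Egr1 in the difference of CpG responses, and -0.27 to 0.24 for Nr4a3 between CL097 and CpG in Tlr9het. The cause was not tested.

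A replicate block changed no member's call in the 6 planned comparisons. With a replicate block, the difference of CpG responses of Nr4a3 stayed at -0.72 with an adjusted p of 0.043, and 0.0065 with the block within genotype.

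Counts over all genes moved more. A fold change threshold of 1 lowered them from 6649 to 4057 (CpG, Tlr9het), from 6386 to 3766 (CpG, Tlr997), from 5132 to 2580 (CL097), from 313 to 74 (genotypes with CpG) and from 177 to 46 (difference of CpG responses), and to 787 and 634 in the comparisons of CL097 with CpG. The 2 genes called in unstimulated cells went to 0 with no filter or with only those libraries, and to 4 without replicate 2 or 3 of Tlr997. With CpG, the genotypes gave 187 genes with no filter, 485 with array quality weights and 187 without replicate 1 of Tlr9het. The difference of CpG responses gave 78 with no filter, 98 without the variance trend, 377 with array quality weights and 328 with the block within genotype, and 87 to 295 when single libraries were left out.

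The deposited values carry no counts, and the counting error of single values is unknown. Of the members' fold changes under all alternatives, 984 kept their direction and side of the threshold, 20 changed sign, 15 gained a call and 19 lost one.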
